A study of Mus musculus with 29 samples.

Results

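T cell receptor (TCR) transcripts were counted at day 0 in brain metastases that a Braf-mutated melanoma formed in mice, after a lead-in with an antibody against PD-L1 and without treatment. These are 7 of the 29 samples of the series, chosen by their titles: 4 lead-in samples and 3 untreated samples. The lead-in samples carry the numbers 10 and 11, each with parts 1 and 2, and the treatment label "Anti-PD-L1 lead-in". The untreated samples carry number 3 with parts 1 and 2 and number 7 with no part; their treatment label reads "No" and their titles read "Vehicle". Samples are written here as number and part, so that 10-1 is part 1 of number 10. The labels describe all samples as an experimental metastasis model and give no strain, age, antibody dose or duration. What a number stands for (an animal, for example) and how the parts of a number were made are not stated. Parts of a number were therefore not treated as independent, and each group has 2 numbers. The title of the series asks what an anti-PD-L1 lead-in adds to a later combination with MAPK inhibitors, and neither of these groups had received an inhibitor, as far as the labels tell.

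PD-L1 is a ligand of PD-1, an inhibitory receptor on activated T cells, and blocking it releases T cells from that inhibition. The receptor of an alpha-beta T cell is a pair of an alpha chain (TRA) and a beta chain (TRB). Each chain is assembled by joining a V to a J segment, with a D segment between them in TRB, and the junction encodes the CDR3 loop, which makes much of the contact with the presented peptide. Daughter cells of 1 T cell share its chains, so many copies of 1 chain in a sample can come from an expanded clone. A clonotype here is 1 chain with a given V, J and CDR3 amino acid sequence. A few alpha chains are shared by whole populations of T cells, among them the chain of invariant natural killer T (iNKT) cells, which recognise lipids on CD1d, and that of mucosal-associated invariant T (MAIT) cells, which recognise vitamin B2 metabolites on MR1.

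Sequences of the largest clonotypes and of some shared ones are shown first, for CDR3 of up to 14 residues. Longer ones are named by their segments and length. The 2 largest TRB clonotypes of numbers 11, 3 and 7 come first, and not all of them are named again below.
Number 11, lead-in, TRBV20 with TRBJ2-7: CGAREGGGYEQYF
Number 11, lead-in, TRBV13-2 with TRBJ2-7: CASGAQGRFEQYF
Number 11, lead-in, and number 3, untreated, TRBV16 with TRBJ2-7: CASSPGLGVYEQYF
Number 3, untreated, TRBV16 with TRBJ2-7: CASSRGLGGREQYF
Number 7, untreated, TRBV29 with TRBJ2-1: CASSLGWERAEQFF
Number 7, untreated, TRBV2 with TRBJ2-3: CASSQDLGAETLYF
The 2 largest of number 10 had 16 residues (TRBV5 with TRBJ2-4, and TRBV23 with TRBJ1-1). A further pair of TRB clonotypes is given because they were shared between numbers, as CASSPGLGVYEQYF was.
Numbers 10 and 11, lead-in, TRBV13-1 with TRBJ2-3: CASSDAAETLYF
Number 11, lead-in, and numbers 3 and 7, untreated, TRBV20 with TRBJ2-7: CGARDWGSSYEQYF
The alpha chain CDR3 sequences below are among the largest TRA clonotypes of the 4 numbers, and those with TRAJ23 or TRAJ18 enter the J usage described further on.
Numbers 10, 11 and 3, TRAV7D-2 with TRAJ23: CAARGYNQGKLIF
Numbers 10 and 11, TRAV14-2V14N-2 with TRAJ23: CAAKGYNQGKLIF
Number 11, TRAV7D-2 with TRAJ26: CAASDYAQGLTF
Number 3, TRAV7D-2 with TRAJ18: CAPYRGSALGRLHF
Number 7, TRAV7N-6 with TRAJ39: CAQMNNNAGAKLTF
The largest TRA clonotype of number 7 (TRAV7D-2 with TRAJ22) and a TRAV11N clonotype with TRAJ18 that was in all 4 numbers had 15 residues.

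The amount of TCR transcript varied more among the lead-in samples than between the groups. Lead-in samples 10-1, 10-2, 11-1 and 11-2 held 266, 672, 5317 and 1273 TRB counts, against 302, 320 and 605 TRB counts in untreated samples 3-1, 3-2 and 7. For the alpha chain the lead-in samples held 230, 700, 6782 and 1292 counts, against 363, 370 and 635 counts in the untreated samples. The groups overlapped, since 10-1 was the lowest sample for both chains and 11-1 the highest. The mean over numbers was 2.42-fold higher after lead-in for TRB (log2 difference 1.27; means 10.03 ± 1.85 and 8.76 ± 0.68 in lead-in and untreated numbers, SD, n = 2 each) and 2.26-fold higher for TRA (log2 difference 1.18). Neither difference passed the exact two-sided permutation test over numbers (p = 0.667 for each). With 2 numbers against 2 this test has 6 assignments and cannot give a p below 0.333. Without number 11 the log2 differences were -0.037 for TRB and -0.27 for TRA, so the higher means came from that number. A count of receptor transcripts cannot separate the number of T cells from the RNA per cell, and only TCR transcripts were counted, so no marker of another cell type or of the tissue could be checked.

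**Figure D1:**
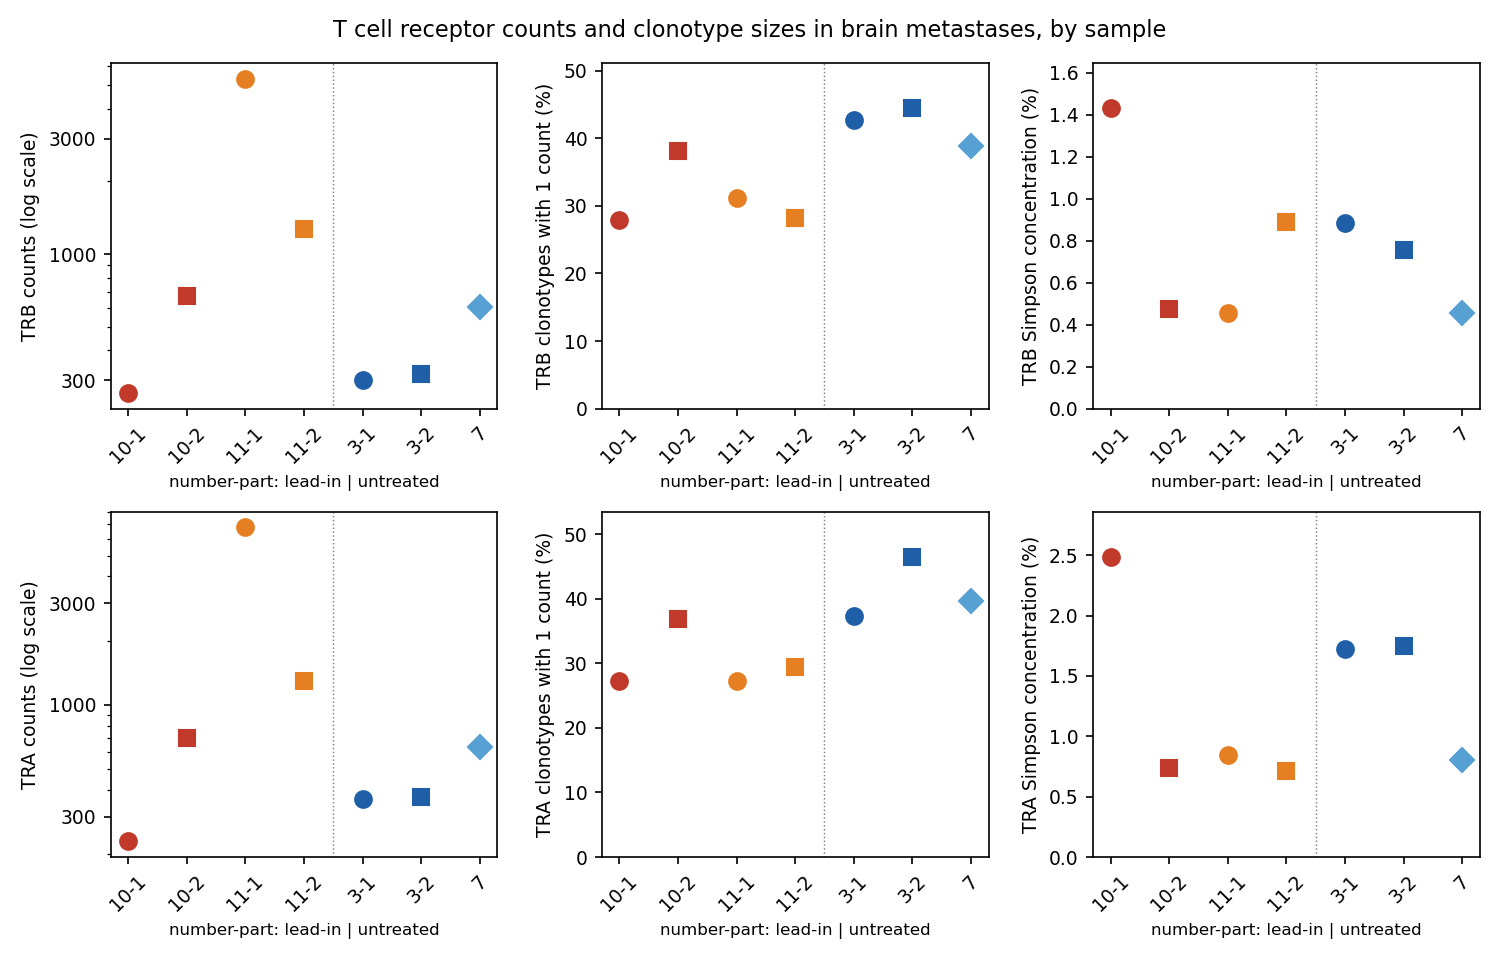
Each point is 1 sample, lead-in samples to the left of the dotted line and untreated samples to the right; the upper row is TRB and the lower row TRA, with counts on a log axis, the percentage of clonotypes seen once, and the Simpson concentration in percent. Counts overlap between groups and are highest in 11-1, the percentages of clonotypes seen once do not overlap, and 10-1 has the highest concentration for both chains.

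Clonotypes numbered 79, 244, 1010 and 284 for TRB in the lead-in samples 10-1, 10-2, 11-1 and 11-2, against 131, 144 and 244 in the untreated samples 3-1, 3-2 and 7. The counts per TRB clonotype were 3.37, 2.75, 5.26 and 4.48 in the lead-in samples and 2.31, 2.22 and 2.48 in the untreated samples, with no overlap. The counts per TRA clonotype did overlap, at 4.18, 3.23, 6.66 and 4.28 in the lead-in samples and 3.3, 2.87 and 2.995 in the untreated samples. Clonotypes seen once made up 27.8%, 38.1%, 31.2% and 28.2% of TRB clonotypes in the lead-in samples and 42.7%, 44.4% and 38.9% in the untreated samples. The share seen once was likewise lower for TRA, where 27.3%, 36.9%, 27.3% and 29.5% of lead-in clonotypes and 37.3%, 46.5% and 39.6% of untreated clonotypes had 1 count. Every lead-in sample therefore had a smaller share of clonotypes seen once than every untreated sample in both chains. This was noticed after the values were seen and is given without a test. The counts per clonotype and the share seen once both depend on depth. When each sample was thinned to 266 TRB counts, the share seen once was 27.8%, 57.7%, 78.2% and 60.3% in lead-in samples. It was 46.1%, 49.3% and 59.9% in untreated samples, and the groups overlapped. For TRA, thinned to 230 counts, the shares were 27.3%, 58.2%, 80.2% and 63.7% in lead-in samples and 45.04%, 53.2% and 58.9% in untreated samples.

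Measures of clone size that take depth into account overlapped between the groups by sample, but not when the parts of a number were summed. The Simpson concentration is the chance that 2 counts drawn from a sample belong to 1 clonotype, and is higher where fewer clones dominate. For TRB it was 1.43%, 0.476%, 0.456% and 0.887% in the lead-in samples 10-1, 10-2, 11-1 and 11-2, against 0.884%, 0.756% and 0.454% in the untreated samples 3-1, 3-2 and 7. The mean over numbers was 0.812% ± 0.199 in lead-in and 0.637% ± 0.259 in untreated (SD, n = 2 each; difference 0.175, exact permutation p = 0.667). For TRA it was 2.49%, 0.739%, 0.846% and 0.709% in the lead-in samples, against 1.72%, 1.75% and 0.804% in the untreated samples (difference -0.074 over numbers, exact permutation p = 0.667). Sample 10-1, the smallest, had the highest concentration for both chains, and its other part was among the lowest. Among 266 TRB counts the expected number of clonotypes was 79, 158.5, 189.4 and 145.2 in the lead-in samples and 123.8, 132.1 and 163.0 in the untreated samples (difference -2.45 over numbers, exact permutation p = 1). Among 230 TRA counts it was 55, 129.0, 163.1 and 139.6 in the lead-in samples and 91.3, 102.0 and 129.8 in the untreated samples (difference 8.46, exact permutation p = 1). With parts of a number summed, which weights the deeper part more, the numbers did not overlap. TRB concentration was 0.378% and 0.447% in lead-in numbers 10 and 11, against 0.452% and 0.454% in untreated numbers 3 and 7. For TRA it was 0.626% and 0.719%, against 1.25% and 0.804%. Expected TRB clonotypes were 173.7 and 193.3, against 167.6 and 163.0, and TRA clonotypes 138.8 and 169.2, against 125.1 and 129.8. Each had an exact permutation p of 0.333, the smallest possible here.

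No single clone dominated any sample. The largest TRB clonotype held 3.38%, 1.64%, 2.73% and 4.08% of TRB counts in the lead-in samples and 3.64%, 3.44% and 1.98% in the untreated samples. The largest TRA clonotype held 6.52%, 3.43%, 6.84% and 3.72% of TRA counts in the lead-in samples and 7.16%, 6.76% and 4.57% in the untreated samples. These shares rest on few counts: the largest TRB clonotype had 9 and 11 counts in lead-in samples 10-1 and 10-2 and 11, 11 and 12 counts in the untreated samples, so that its exact 95% interval in 10-1 ran from 1.56% to 6.33%. The 145 and 52 counts in lead-in samples 11-1 and 11-2 gave intervals of 2.31% to 3.20% and 3.07% to 5.32%. Intervals cover counting error alone. The 10 largest TRB clonotypes together held 27.1%, 12.9%, 15.3% and 23.2% in the lead-in samples and 22.8%, 20.3% and 12.9% in the untreated samples, and the groups overlapped.

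**Figure D2:**
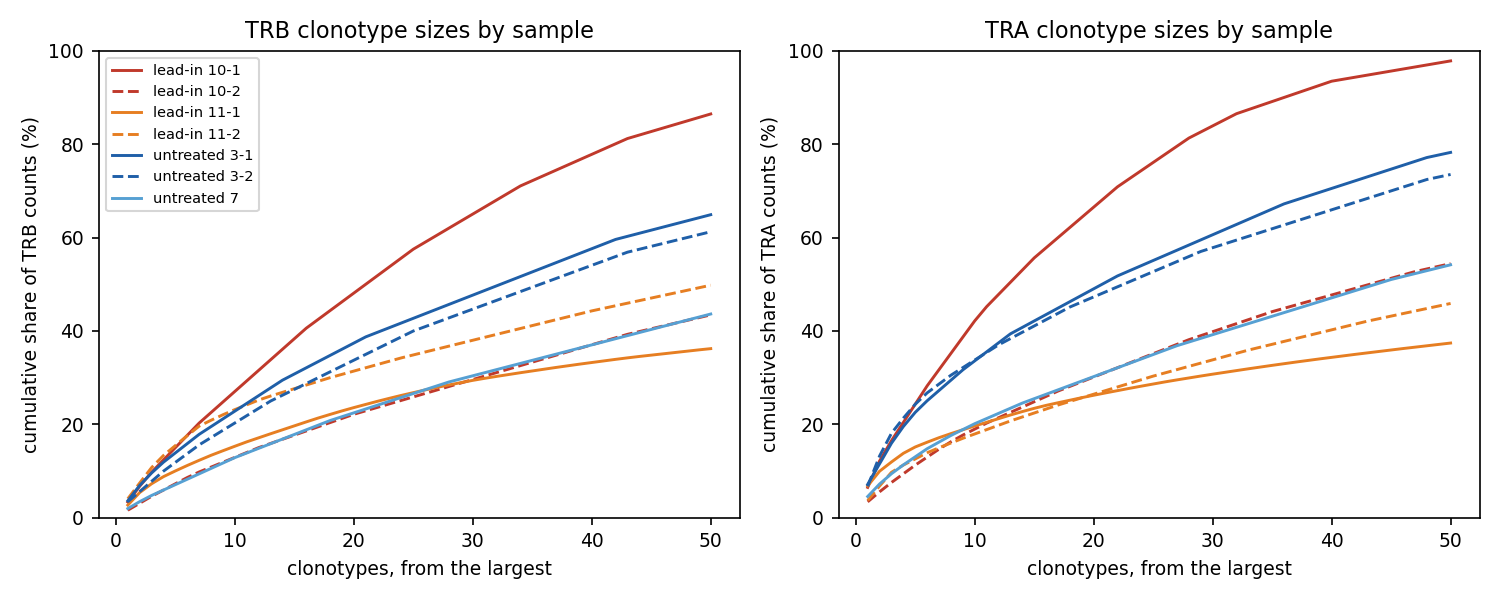
Lines give, for each sample, the cumulative share of TRB (left) or TRA (right) counts held by its 50 largest clonotypes, ranked from the largest. Lead-in sample 10-1 lies above all others beyond the first few clonotypes, untreated samples 3-1 and 3-2 come next over most of the range, and untreated sample 7 lies among the other lead-in samples.

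Most clonotypes were found in 1 number only. Of 2021 TRB clonotypes in the 4 numbers, 2011 (99.5%) were in 1 number, 9 in 2, and 1 in 3. Of 1903 TRA clonotypes, 1878 (98.7%) were in 1 number, and 1 was in all 4. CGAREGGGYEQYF had 143 and 52 counts in lead-in samples 11-1 and 11-2 (2.69% and 4.08% of TRB counts) and was not seen in number 10 or in the untreated samples. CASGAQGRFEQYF likewise had 145 and 27 counts in 11-1 and 11-2 and none in the other numbers. A count of 0 allows a TRB share of up to 0.320% in number 10, and of up to 0.482% and 0.496% in untreated numbers 3 and 7 (3 counts of each total). Neither sequence was in any of the 12 other brain samples or the 10 ovary samples. The largest TRB clonotype of number 10 (TRBV5 with TRBJ2-4, 16 residues), with 5 and 10 counts in lead-in samples 10-1 and 10-2 (1.88% and 1.49%), was also in the ovary samples of number 10, at 2.86% of TRB counts.

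The lead-in numbers had little in common in TRB. The Morisita-Horn overlap, which compares 2 repertoires by the shares of their clonotypes, was 0.585% between numbers 10 and 11, with 3 shared clonotypes (0.943% of those of number 10 and 0.249% of those of number 11). The largest of these was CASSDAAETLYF (TRBV13-1 with TRBJ2-3), with 0, 3, 46 and 5 counts in the lead-in samples 10-1, 10-2, 11-1 and 11-2 and none in the untreated samples. It was also in 3 of 12 other brain and 6 of 10 ovary samples. The untreated numbers 3 and 7 shared 1 TRB clonotype (overlap 0.173%), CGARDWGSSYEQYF (TRBV20 with TRBJ2-7), which was also in lead-in sample 11-2. Across groups, number 11 and untreated number 3 shared 5 TRB clonotypes (overlap 3.35%), and the largest was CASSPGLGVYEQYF, with 50 and 9 counts in lead-in samples 11-1 and 11-2 and 1 and 11 counts in untreated samples 3-1 and 3-2. In TRA the numbers had more in common. The TRA overlap was 32.4% between lead-in numbers 10 and 11 (12 shared clonotypes) and 4.91% between untreated numbers 3 and 7. With untreated number 3 it was 13.1% for number 10 and 28.7% for number 11. With untreated number 7 it was 1.70% for number 10 and 2.23% for number 11. Large clonotypes weigh most in this overlap. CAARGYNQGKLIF was the largest TRA clonotype of both lead-in numbers, with 3.44% of TRA counts in number 10 and 6.22% in number 11. It held 3.27% in untreated number 3 and was not seen in untreated number 7. It was also in 12 of 12 other brain samples and 10 of 10 ovary samples. The overlap without it was not computed.

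Parts of a number were unequally alike. The 2 parts of lead-in number 11 shared 88 TRB clonotypes, with an overlap of 52.4%, whereas the parts of lead-in number 10 shared 5 (overlap 3.83%) and those of untreated number 3 shared 11 (overlap 7.63%). For TRA the overlap between parts was 47.2% in number 11, 7.86% in number 10 and 38.5% in untreated number 3. The counts behind these values differ: number 11 had 6590 TRB counts, number 10 had 938 and untreated number 3 had 622, and the part that depth plays in the overlap was not tested.

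The clearest difference in J usage was in TRAJ23, whose share was higher after lead-in. TRAJ23 made up 12.6%, 14.9%, 14.5% and 11.5% of TRA counts in lead-in samples 10-1, 10-2, 11-1 and 11-2, against 1.38%, 12.4% and 4.41% in untreated samples 3-1, 3-2 and 7. The lead-in samples were close to each other and the untreated samples spread widely, so that 3-2 lay above 11-2. Over numbers the means were 14.1% ± 0.216 and 5.68% ± 1.80 in lead-in and untreated (SD, n = 2 each), a log2 difference of 1.31 ± 0.31 (SE, edgeR quasi-likelihood test, Benjamini-Hochberg adjusted p = 0.0248). It was the 1 J segment of 53 tested that passed the adjusted threshold of 0.05 as higher (1.89%), and none passed as lower (0%); 5 had an unadjusted p under that value. DESeq2 also called TRAJ23 (adjusted p = 0.0172). The call was lost with TMM scaling (adjusted p = 0.0961), with each part as its own library (0.179) and with each clonotype counted once (log2 0.83, 0.220). It was also lost without lead-in sample 10-2 (adjusted p = 0.150) or 11-1 (0.0902), untreated sample 3-1 (log2 0.77, 0.638) or 7 (0.0967), number 10 (0.227) or number 11 (0.221), while the log2 difference was 2.23 without untreated sample 3-2.

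The TRAJ23 counts came from many clonotypes. In the lead-in samples 9, 22, 70 and 18 clonotypes carried TRAJ23, against 2, 8 and 8 in the untreated samples. These were 16.4%, 10.1%, 6.88% and 5.96% of TRA clonotypes in the lead-in samples and 1.82%, 6.20% and 3.77% in the untreated samples, and the groups overlapped, with 11-2 below 3-2. The largest, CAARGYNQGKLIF with TRAV7D-2, held 3.48%, 3.43%, 6.84% and 2.94% of TRA counts in the lead-in samples, and 0%, 6.49% and 0% in untreated samples 3-1, 3-2 and 7. A count of 0 allows a TRA share of up to 0.826% in 3-1 and 0.472% in 7. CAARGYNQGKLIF was also in 12 of 12 other brain samples and 10 of 10 ovary samples. The other TRAJ23 clonotypes together held 9.13%, 11.4%, 7.64% and 8.51% in the lead-in samples and 1.38%, 5.95% and 4.41% in the untreated samples, a split with no overlap that was seen after the fact. With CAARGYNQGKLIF left out of the fit, an alternative added after the values were seen, the log2 difference was 1.24 and the adjusted p 0.147. The second TRAJ23 clonotype, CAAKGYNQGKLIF, carries another V name. It had 0, 15, 19 and 48 counts in the lead-in samples and none in the untreated samples, where a count of 0 allows up to 0.826%, 0.811% and 0.472% of TRA counts in 3-1, 3-2 and 7. It was also in 8 of 12 other brain samples and 7 of 10 ovary samples, among them those of number 3 (44 counts, 0.074%). In the other 6 brain numbers of the series TRAJ23 held 7.84% to 11.9% of TRA counts, and in the 5 ovary numbers 4.88% to 16.8%.

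**Figure D3:**
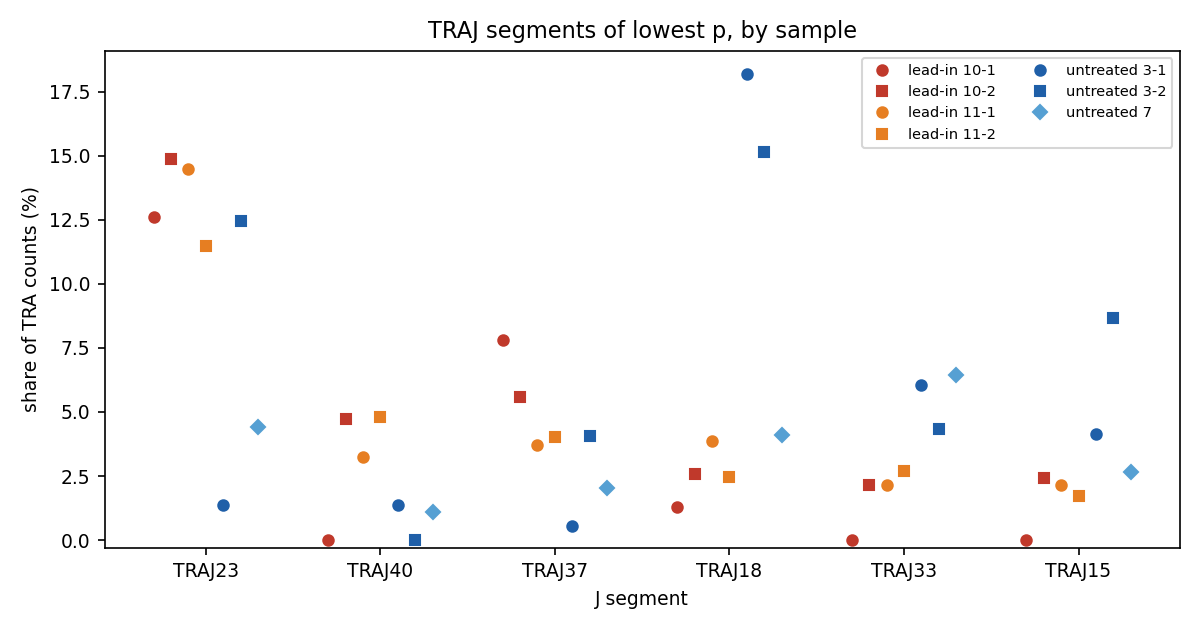
Points give the share of TRA counts (percent) that carried each of 6 TRAJ segments in each sample, lead-in samples in red and orange and untreated samples in blue. TRAJ23 is between 11.5% and 14.9% in the lead-in samples and spreads from 1.38% to 12.4% in the untreated samples. TRAJ18, TRAJ33 and TRAJ15 are lower in every lead-in sample than in any untreated sample.

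TRAJ18 had a lower share in every lead-in sample than in any untreated sample, but did not pass the test. Its share was 1.30%, 2.57%, 3.88% and 2.48% of TRA counts in the lead-in samples 10-1, 10-2, 11-1 and 11-2, against 18.2%, 15.1% and 4.09% in the untreated samples 3-1, 3-2 and 7. Both parts of untreated number 3 were high, whereas untreated sample 7 was close to lead-in sample 11-1. The log2 difference was -1.79 ± 0.55 (SE, edgeR adjusted p = 0.110), and without number 3 it was -0.45. It passed with the 4 libraries of these groups alone (adjusted p = 0.0125). It also passed with each part as its own library (log2 -2.19, adjusted p = 0.00189), but there parts that are not independent count as replicates. TRAJ18 was also lower in the fit without untreated sample 7, which left number 3 as the only untreated number. Of the 53 J segments, 4 were lower in all 4 lead-in samples than in all 3 untreated samples (7.55%) and 1 was higher (1.89%). Those lower were TRAJ18, TRAJ33, TRAJ15 and TRBJ1-5.

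TRAJ18 is the J segment of the iNKT alpha chain, which joins it to a V segment of the TRAV11 family. TRAV11-family chains with TRAJ18 numbered 1, 4, 168 and 5 counts in the lead-in samples (0.435%, 0.571%, 2.48% and 0.387% of TRA counts), against 32, 35 and 7 counts in the untreated samples (8.82%, 9.46% and 1.10%). Lead-in sample 11-1 was above untreated sample 7, so the groups overlapped. Most were 1 junction of 15 residues, which with TRAV11N had 1, 3, 126 and 5 counts in the lead-in samples and 16, 25 and 6 counts in the untreated samples. It was also in 12 of 12 other brain samples and in 10 of 10 ovary samples. TRAJ18 joined to other V segments held 0.870%, 2.00%, 1.401% and 2.09% in the lead-in samples and 9.37%, 5.68% and 2.99% in the untreated samples, with no overlap. TRAJ18 as a whole already had no overlap, and no test was run on this part of it, which had 19 counts in untreated sample 7. In untreated number 3 most of this was 1 clonotype, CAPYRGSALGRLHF with TRAV7D-2, which had 26 and 18 counts in parts 3-1 and 3-2 (7.16% and 4.86%) and none in the other 3 numbers. It was also in the ovary samples of number 3, at 15.99% of TRA counts. With each clonotype counted once, the TRAJ18 log2 difference was -0.40.

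TRAJ33, the J segment of the MAIT alpha chain, was likewise lower in all lead-in samples. It held 0%, 2.14%, 2.15% and 2.71% of TRA counts in the lead-in samples 10-1, 10-2, 11-1 and 11-2, against 6.06%, 4.32% and 6.46% in the untreated samples 3-1, 3-2 and 7. The log2 difference was -1.57 ± 0.64 (SE) and did not pass (edgeR adjusted p = 0.323). The 0 in 10-1 allows a share of up to 1.30% of its 230 TRA counts. The MAIT chain itself, TRAV1 with TRAJ33, had 3 counts in lead-in sample 11-1 and none in the other 6 samples, so the TRAJ33 counts were nearly all of other chains. They came from 0, 3, 25 and 9 clonotypes in the lead-in samples and 8, 6 and 15 in the untreated samples.

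The other TRAJ segments of low p did not pass. TRAJ40 held 0%, 4.71%, 3.23% and 4.80% in the lead-in samples, against 1.38%, 0% and 1.10% in the untreated samples (log2 difference 1.98 ± 0.72, SE, edgeR adjusted p = 0.223). DESeq2 called it (adjusted p = 0.0172). TRAJ37 held 7.83%, 5.57%, 3.73% and 4.02% in the lead-in samples, against 0.551%, 4.05% and 2.05% in the untreated samples (log2 1.16 ± 0.54, adjusted p = 0.467). TRAJ15 held 0%, 2.43%, 2.14% and 1.70% in the lead-in samples, against 4.13%, 8.65% and 2.68% in the untreated samples, with no overlap (log2 -1.22 ± 0.60, adjusted p = 0.492). TRAJ4 was the 1 J segment higher in all lead-in samples than in all untreated samples, with 5, 9, 66 and 21 counts in the lead-in samples and 0, 1 and 5 counts in the untreated samples (edgeR adjusted p = 0.926).

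Grouped by position in the locus, TRAJ segments numbered under 20, which lie nearest to the constant region, held 17.8%, 19.4%, 21.8% and 25.7% of TRA counts in the lead-in samples and 36.6%, 35.7% and 22.99% in the untreated samples. Segments numbered 20 to 39 held 60.0%, 55.1%, 59.5% and 50.1% in the lead-in samples and 43.8%, 47.3% and 57.6% in the untreated samples. Segments numbered 40 and above, which lie nearest to the V segments, held 22.2%, 25.4%, 18.7% and 24.2% in the lead-in samples and 19.6%, 17.0% and 19.4% in the untreated samples. All 3 ranges overlapped between the groups, and no test was run on them.

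No TRBJ segment passed the test. Segments of the TRBJ2 cluster, which lies downstream of TRBJ1, held 61.3%, 64.4%, 68.9% and 74.5% of TRB counts in the lead-in samples 10-1, 10-2, 11-1 and 11-2, and 61.6%, 64.7% and 67.8% in the untreated samples 3-1, 3-2 and 7. The mean over numbers was 67.3% ± 6.25 in lead-in and 65.5% ± 3.27 in untreated (SD, n = 2 each; difference 1.82, exact permutation p = 1). TRBJ2-7 was the most used segment, with 13.2%, 28.1%, 26.4% and 32.8% in the lead-in samples and 22.2% and 27.2% in untreated samples 3-1 and 3-2 and 121 of 605 counts in untreated sample 7, though in lead-in sample 10-1 TRBJ2-5 exceeded it at 14.3%. The 12 TRBJ segments each had an edgeR adjusted p of 0.926.

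The largest TRBJ difference was in a little-used segment. TRBJ1-5 held 2.26%, 2.08%, 1.84% and 0.314% in the lead-in samples and 3.97%, 6.88% and 2.64% in the untreated samples, with no overlap (log2 -1.16 ± 0.85, SE, edgeR adjusted p = 0.926). TRBJ1-6 held 2.26%, 2.08%, 3.48% and 4.32% in the lead-in samples and 4.30%, 3.12% and 4.63% in the untreated samples (log2 -0.50). TRBJ1-4 held 12.8%, 12.1%, 9.93% and 3.53% in the lead-in samples and 7.28%, 8.75% and 7.60% in the untreated samples (log2 0.42). The other TRBJ segments had log2 differences between -0.25 for TRBJ1-2 and 0.20 for TRBJ2-7: TRBJ2-3 had -0.17, TRBJ2-4 -0.12, TRBJ1-3 -0.11, TRBJ2-5 -0.092, TRBJ2-2 0.063, TRBJ2-1 0.078 and TRBJ1-1 0.13.

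**Figure D4:**
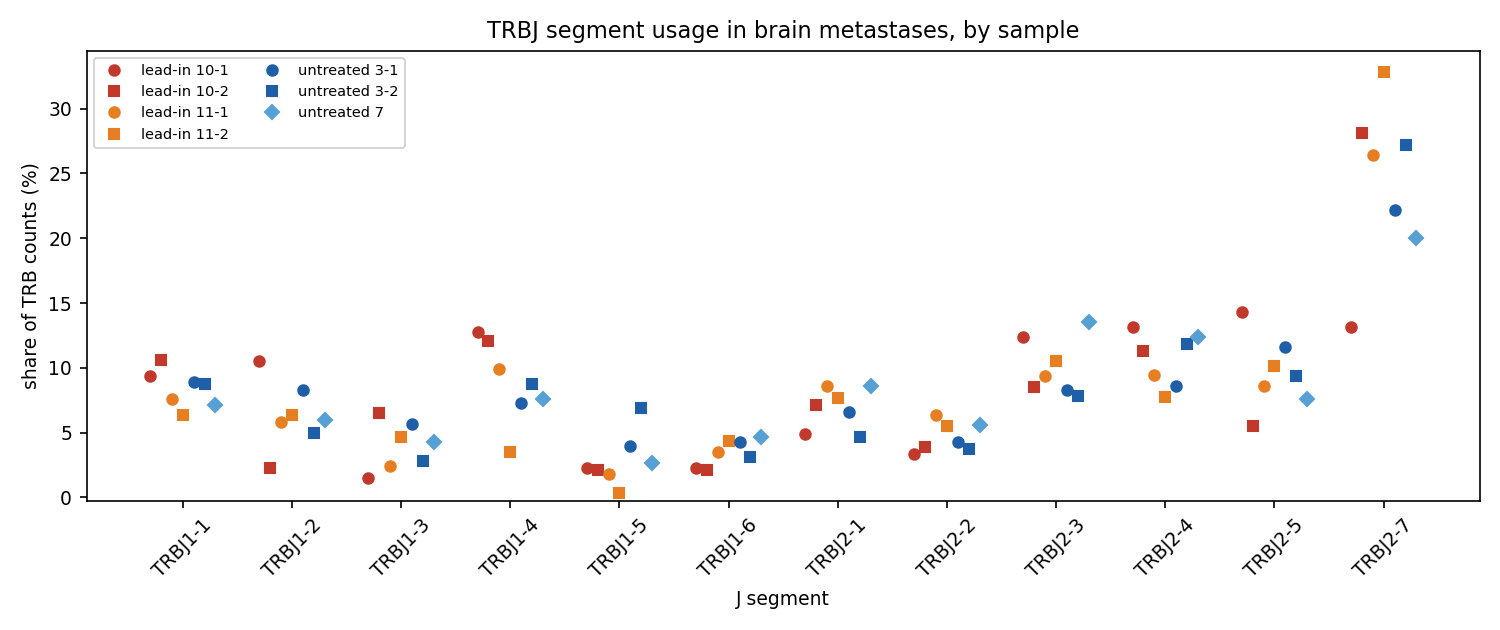
Points give the share of TRB counts (percent) of each of the 12 TRBJ segments in each sample, lead-in samples in red and orange and untreated samples in blue. TRBJ2-7 is the most used segment in all samples but lead-in 10-1, and TRBJ1-5 is the 1 segment whose groups do not overlap.

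No V-J pair of 423 tested passed (edgeR, adjusted threshold 0.05; 0% higher and 0% lower), while 21 had an unadjusted p under 0.05; DESeq2 called 0 and had 18 under it. All 4 lead-in samples were higher than all 3 untreated samples in 5 pairs (1.18%) and lower in 3 (0.709%). The most used TRA pairs were built on TRAV7D-2: with TRAJ23 in lead-in samples 10-2, 11-1 and 11-2 (4.43%, 8.40% and 4.49% of TRA counts) and in untreated sample 3-2 (8.65%), with TRAJ22 in lead-in sample 10-1 (6.52%) and untreated sample 7 (5.83%), and with TRAJ18 in untreated sample 3-1 (7.16%). TRAV7D-2 itself held 19.6%, 7.71%, 16.8% and 11.5% in the lead-in samples and 17.4%, 15.9% and 12.9% in the untreated samples (log2 difference -0.15 ± 0.32, SE, edgeR adjusted p = 0.996).

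TRAV7D-2 with TRAJ18 had the lowest p of all pairs, with 0, 0, 5 and 0 counts in the lead-in samples and 26, 18 and 0 counts in the untreated samples (log2 -5.96 ± 1.73, SE, edgeR adjusted p = 0.213). In untreated number 3 it was the single clonotype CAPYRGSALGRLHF. The pair passed without untreated sample 3-2 (adjusted p = 0.0484). It also passed where each part was its own library (0.0121), but there parts that are not independent count as replicates. The pair was also lower in the fit without untreated sample 7, which left number 3 as the only untreated number. Without untreated sample 3-2, TRAV7D-2 with TRAJ23 passed too (edgeR adjusted p = 3.7e-05). However, 3-2 was the only untreated sample that held TRAV7D-2 with TRAJ23, at 8.65% of TRA counts. TRAV7D-2 with TRAJ37 had 6, 4, 59 and 6 counts in the lead-in samples and none in the untreated samples. Its mean share was at least 4.29-fold higher in lead-in, against the floor of 3 counts over the untreated group (edgeR adjusted p = 0.803). TRBV5 with TRBJ1-1 had 8, 4, 22 and 8 counts in the lead-in samples and none in the untreated samples, at least 3.55-fold higher against the same kind of floor (adjusted p = 0.803). TRAV7D-2 with TRAJ49 had 39 and 10 counts in lead-in samples 11-1 and 11-2 and none elsewhere, so lead-in number 10 had none. Its mean lead-in share was at least 1.38-fold higher against the untreated floor of 3 counts, which covers counting error only. TRAV14D-1 with TRAJ23 and TRBV13-3 with TRBJ2-1 were the other pairs seen in all 4 lead-in samples and no untreated sample; TRBV17 with TRBJ2-5 was also higher in all 4.

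On the untreated side, TRAV8-1V8D-1 with TRAJ24 had 5 counts of 1 clonotype, all in sample 7. TRAV4N-4 with TRAJ49 had 0 counts in all lead-in samples and 1, 0 and 10 counts in the untreated samples. The 3 pairs lower in all lead-in samples were TRBV1 with TRBJ1-3, TRBV1 with TRBJ1-4 and TRBV14 with TRBJ2-5, each with at most 8 counts in an untreated sample. The number of TRB pairs seen in 266 counts was 61, 97.6, 113.1 and 93.2 in the lead-in samples and 81.6, 83.4 and 107.3 in the untreated samples, and the groups overlapped. For TRB the leading pair differed between samples: TRBV16 with TRBJ2-5 in lead-in 10-1 (5.26%), TRBV3 with TRBJ2-7 in lead-in 10-2 (6.55%), TRBV20 with TRBJ2-7 in lead-in 11-2 (5.42%), and TRBV1 with TRBJ2-7 in untreated 7 (3.47%). TRBV16 with TRBJ2-7 led in lead-in 11-1 (4.65%) and in untreated 3-1 and 3-2 (4.30% and 6.56%).

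No V segment of 99 tested passed (edgeR, 0% in each direction), with 5 at an unadjusted p under 0.05; DESeq2 called 0 and had 10 under it. TRBV4 was higher in all lead-in samples than in all untreated samples (1.01% of segments), with 3.01%, 2.98%, 3.97% and 5.58% of TRB counts in lead-in and 1.66%, 1.88% and 1.82% in untreated (log2 1.03 ± 0.74, SE, edgeR adjusted p = 0.996). TRBV1 was among the 3 lower in all (3.03%), with 7.89%, 4.02%, 7.73% and 5.03% in lead-in and 10.6%, 9.69% and 10.2% in untreated (log2 -0.72 ± 0.42, adjusted p = 0.930); the others were TRAV19 and TRAV7-2V7D-2. Of the segments with the lowest p, TRAV13N-1 had 0, 9, 70 and 26 counts in the lead-in samples and 1, 0 and 1 in the untreated samples. TRAV7-4V7D-4 had 0, 17, 108 and 39 counts in the lead-in samples and 1, 4 and 3 in the untreated samples. TRAV7D-6 had 0, 3, 34 and 5 counts in the lead-in samples and none in the untreated samples, and TRAV15N-1 had 6 counts, all in untreated sample 3-2. TRAV11V11D and TRAV11V11DV11N, names of the iNKT family, had 17 and 1 counts in lead-in sample 11-1 and none in the other lead-in samples, against 16, 4 and 1 and against 0, 5 and 0 counts in the untreated samples. A joined name such as TRAV11V11D covers V segments so alike that the authors' table does not separate them, so values of single copies of a duplicated TRAV segment are uncertain.

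CDR3 lengths were close in both groups and no difference passed a test. The mean TRB CDR3 length, weighted by counts, was 13.85, 13.98, 13.78 and 13.66 residues in the lead-in samples 10-1, 10-2, 11-1 and 11-2, against 13.93, 13.84 and 13.68 residues in the untreated samples 3-1, 3-2 and 7 (difference 0.031 over numbers, exact permutation p = 0.667). The mean TRA length was 13.40, 13.53, 13.55 and 13.42 residues in the lead-in samples, against 13.56, 13.47 and 13.65 residues in the untreated samples. Over numbers the TRA means were 13.48 ± 0.012 and 13.58 ± 0.098 residues in lead-in and untreated (SD, n = 2 each; difference -0.11), and the exact permutation p of 0.333 was the smallest the design allows. With each clonotype counted once the TRA difference was 0.062, of the opposite sign, also with an exact permutation p of 0.333. By that measure the lead-in samples ran from 13.48 to 13.54 residues and the untreated samples from 13.43 to 13.47, with no overlap. All 9 measures tested by permutation, which are counts, concentration, richness and mean length of both chains and the TRBJ2 share, had an adjusted p of 1.

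The commonest TRB length was 14 residues in all 7 samples. TRB CDR3 of 14 residues held 29.7%, 27.5%, 27.9% and 31.1% of TRB counts in the lead-in samples and 32.8%, 31.6% and 38.5% in the untreated samples, and was the 1 length class of 19 lower in all lead-in samples (5.26%); none was higher in all (0%). Its log2 difference was -0.32 ± 0.16 (SE, edgeR adjusted p = 0.585). No length class passed (edgeR, 0% in each direction) and none had an unadjusted p under 0.05; DESeq2 called 0, also with none under it. TRA CDR3 of 13 residues held 26.5%, 33.3%, 35.02% and 38.2% in the lead-in samples and 27.5%, 30.3% and 26.8% in the untreated samples, and those of 15 residues 6.09%, 15.6%, 14.7% and 11.4% in the lead-in samples and 14.6%, 17.8% and 19.4% in the untreated samples. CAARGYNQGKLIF and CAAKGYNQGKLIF belong to the first of these classes, and the TRAV11N junction with TRAJ18 to the second. TRA CDR3 of 11 residues, and TRB CDR3 of 11 and 15 residues, had adjusted p of 0.585, 0.585 and 0.586.

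**Figure D5:**
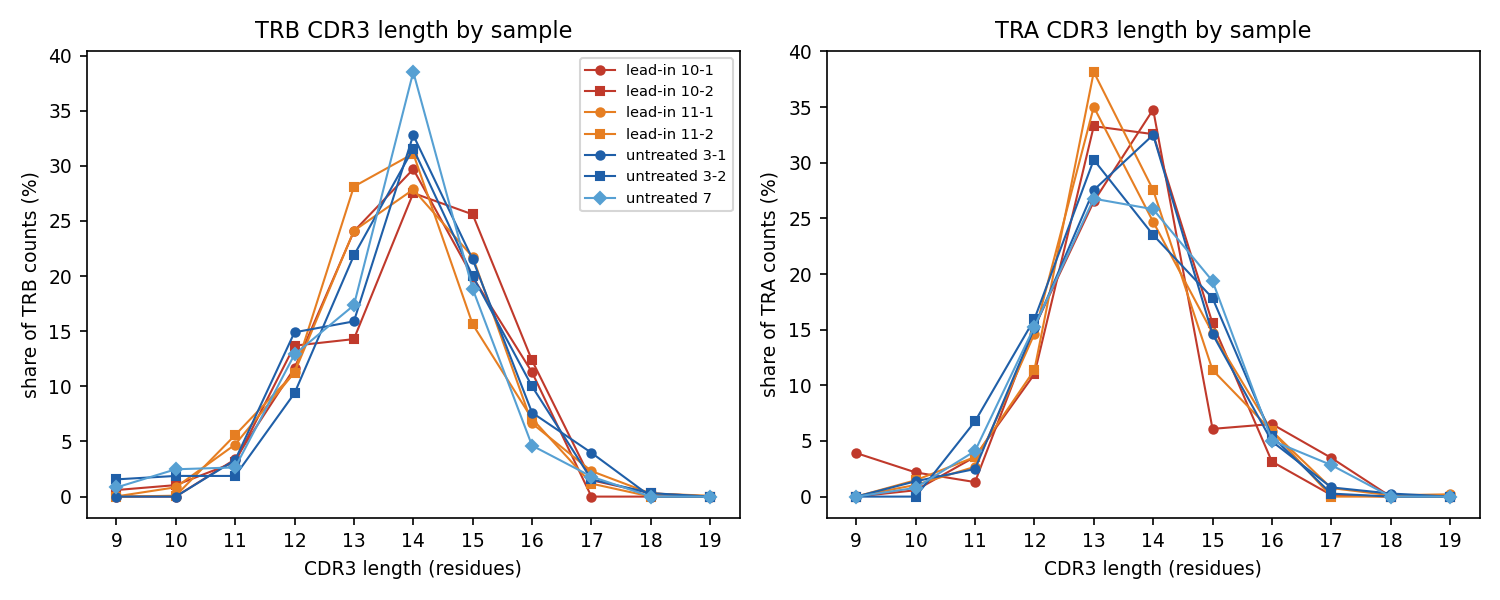
Lines give the share of TRB (left) and TRA (right) counts at each CDR3 length from 9 to 19 residues in each sample, lead-in samples in red and orange and untreated samples in blue. All TRB profiles peak at 14 residues and all TRA profiles at 13 or 14, and lead-in and untreated profiles overlap at most lengths.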

How the data were processed

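Per the labels' protocols, RNA came from AllPrep and mirVana kits, with no word on which kit served which sample, and TCR libraries from a QIAseq immune repertoire kit. The authors deposited 1 table of raw counts per chain, V segment, J segment and CDR3, without normalization. Not given in the sources used here are the aligner, the clonotype caller, its filters, and whether counts are reads or molecules. Per the submitters' processing notes the build was GRCh 38, a human build, so no coordinates are given. All 53 J names matched RefSeq names of GRCm38.p6.

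Rows whose CDR3 held a letter outside the standard residues were left out (5 of the counts of the 7 samples, 0.0261%), which left 19132 counts in 3924 rows. No pair of the 7 sample columns was identical. Nothing says that numbers are separate animals, so p-values measure only the spread between numbers. Measures of parts were averaged per number and tested by exact two-sided permutation over numbers, with Benjamini-Hochberg adjustment over 9 measures (Python 3.11.15, numpy 2.4.6, pandas 2.3.3, scipy 1.17.1, matplotlib 3.10.9). Shares were tested with edgeR 4.0.16 in R 4.3.3 on summed parts, all 10 brain numbers in 1 fit, offset by the log chain total, over features that reached 10 counts in 2 or more libraries; DESeq2 1.42.0 was an alternative. The SE of a log2 difference was derived and is not an edgeR output. It is the size of the log2 difference, refitted without edgeR's prior count, divided by the square root of the test's F statistic. The log2 differences printed come from the fit with the default prior count. Scripts were tested on simulated data. Named features are those past the threshold, the 3 of lowest p in each direction of each family, all TRBJ segments, TRAJ18, TRAJ33, those whose groups do not overlap, and the largest or shared clonotypes. The members and lists were chosen with earlier results of these data known. Intervals are exact 95% binomial intervals, and they and the floors of 3 counts cover counting error only.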

Additional observations from a re-analysis of the deposited data

Results flagged for a closer look

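In the 4 lead-in samples, 33 values were tested for a sample standing far from the others by Dixon's criterion, and 5 passed. Chance passes about 1 in 20 groups of independent measured values. The lead-in samples are parts of 2 numbers and not independent, so this rate is a rough guide only. It does not apply at all to 3 of the 5, where the other 3 samples are at 0 and any count passes. The 3 untreated samples are too few for it. Lead-in sample 10-1 had a TRA Simpson concentration of 2.49%, against 0.709% to 0.846% in the other lead-in samples and 0.804% to 1.75% in the untreated samples. The same sample had 3.01% of its TRB counts in TRBV5 with TRBJ1-1, which rests on 8 counts. Lead-in sample 11-1 was the only lead-in sample with any count of TRAV11V11D (0.251% of TRA counts), TRAV11V11DV11N (0.0147%, 1 count) or TRAV7D-2 with TRAJ18 (0.0737%, 5 counts). It was also the deepest sample, with 6782 TRA counts, against 230 to 1292 in the other lead-in samples. The shares in 11-1 of TRAV11V11DV11N and of TRAV7D-2 with TRAJ18 lie below what 3 counts would be in any other of the 7 samples. The part of depth in these values was not tested.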

How the results depend on the processing

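No paired analysis was possible because the lead-in and untreated brain numbers share none; the labels repeat a number only between organs. The number of J segments called was 1 as reported, 2 with DESeq2 (TRAJ23 and TRAJ40), 2 with only the 4 libraries of the groups (TRAJ18 and TRAJ23), 0 with TMM factors, 0 with each clonotype counted once, 0 without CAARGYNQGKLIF (added after the data were seen), and 0 to 1 on leaving out each sample or number. With each part as its own library, where parts count as replicates, the 1 call was TRAJ18 in place of TRAJ23. V segments called were 0 to 1 and V-J pairs 0 to 2 on leaving out samples or numbers, and V-J pairs were 1 with each part as its own library. The TRAJ23 log2 difference stayed above 0 in all 17 alternatives (0.77 to 2.23), with adjusted p of 0.0023 to 0.638, and was past the threshold in 7.

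Other differences changed direction. TRB richness was -2.45 as reported, 3.39 with parts as samples, 18.2 with parts pooled, 13.2 without clonotypes of 1 count, and -26.7 to 21.8 on leaving out samples or numbers. Left-out ranges were -0.037 to 2.58 for log2 TRB counts, -0.27 to 2.62 for log2 TRA counts, -0.063 to 0.414 for TRB concentration, -0.540 to 0.392 for TRA concentration, -21.2 to 38.1 for TRA richness, -0.070 to 0.133 for TRB length and -2.60 to 6.24 for the TRBJ2 share. TRB concentration was -0.040 with parts pooled, TRB length -0.0026 with parts as samples, and TRA length 0.062 with each clonotype once. Counting each clonotype once gave -0.068 for TRA CDR3 of 13 residues and 0.19 for those of 15. On leaving out samples or numbers, the log2 difference ran from -7.18 to 2.60 for TRAV11V11DV11N (2.47 without untreated sample 3-2) and from -0.0016 to 0.28 for TRB CDR3 of 15 residues. The cause was not tested. Depth limits what can be seen: 3 counts are 1.13% of TRB counts in lead-in sample 10-1 and 0.056% in 11-1.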

Other observations

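Number 10 and number 3 also have ovary samples in the series. Of the 318 TRB clonotypes of brain number 10, 127 (39.9%) were also in ovary number 10, where they were 2.19% of 5802 clonotypes, and they held 40.9% of the brain counts and 31.2% of the ovary counts. The ovary samples of number 3 held 9 (2.83%) of the clonotypes of brain number 10. Of the 264 TRB clonotypes of untreated brain number 3, 99 (37.5%) were in ovary number 3 and 6 (2.27%) in ovary number 10. The Morisita-Horn overlap in TRB was 22.5% for number 10 and 27.6% for number 3 between organs, against 3.83% between the 2 brain parts of number 10 and 7.63% between those of number 3. The ovary repertoires were far deeper, with 81190 TRB counts for number 10 and 43279 for number 3, against 938 and 622 in the brain.

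In TRA the overlap between organs was 40.1% for number 10 and 58.3% for number 3. Of the brain numbers without an ovary sample, lead-in number 11 had a TRA overlap of 56.6% with ovary number 10 and 15.5% with ovary number 3, and untreated number 7 had 1.70% and 0.926%. Number 11 shared 86 TRA clonotypes (7.01% of its own and 1.78% of those of the ovary) with ovary number 10. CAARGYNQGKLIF held 6.22% of TRA counts in brain number 11 and 7.46% in ovary number 10, and was not seen in brain number 7. In TRB number 11 overlapped by 2.94% with ovary number 10 and by 3.97% with ovary number 3, and number 7 by 0.728% and 0.0019%.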
